A study of Mus musculus with 10 samples.

Results

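Of the 18055 genes listed in any of 10 RNA-seq libraries of mouse primary hepatocytes, 8 protein-coding genes are described here: Cdnf, Lrrc17, Chrna10, Myh6, Myh7, Cd8b1, Tctex1d4 and Apol11b. They were chosen by their expected counts and FPKM values (reads per length and depth), in which the 4 libraries treated with a free fatty acid (FFA) alone differed strongly from the other 6, so their difference between these sides is a description and carries no test. That 5 of them are higher and 3 lower in those 4 follows from that choice. The hepatocytes, of C57BL/6 mice, were treated with either of 2 FFAs, palmitate (PA, 200 µM) or linoleate (LA, 12 µM), for 24 h, alone or after 1 h of pretreatment with NTP, the analgesic extract Neurotropin. Gene expression was measured by RNA-seq in 5 groups of 2 libraries, namely Vehicle, PA, LA, PA+NTP and LA+NTP, to learn which genes respond to an FFA and to NTP. All groups shared isolation by collagenase perfusion, collagen-coated plates and serum-free medium, the labels give no age or sex of the mice, and nothing says whether the 2 libraries of a group came from separate mice or cultures, so that p-values measure the spread between these libraries, which may be technical. No group received NTP without an FFA.

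The genes have little in common by their known roles. Cdnf encodes a secreted protein that resides in the endoplasmic reticulum and is the paralog of Manf, and Lrrc17 a secreted leucine-rich repeat protein known for restraining osteoclast formation under RANKL. Chrna10 encodes a subunit of nicotinic acetylcholine receptors known from cochlear hair cells, where it pairs with the product of Chrna9. Myh6 and Myh7 encode the alpha and beta cardiac myosin heavy chains, the motor proteins of the heart's thick filament. Myh6 prevails in the adult mouse ventricle and Myh7 in the fetal ventricle and in slow skeletal fibres. Cd8b1 encodes the beta chain of CD8, the coreceptor of cytotoxic T cells, Tctex1d4 a light chain of the Tctex family of dynein light chains, and Apol11b a member of the apolipoprotein L family. None of the 8 is a textbook hepatocyte gene.

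The libraries held 13142588 to 60046937 expected counts, a 4.57-fold range, and PA 1 was the shallowest and LA+NTP 2 the deepest. All 12 hepatocyte markers examined were listed in every library, and their summed level lay between 16570 and 21550 CPM (counts scaled by library size to a fixed total). The 4 libraries with an FFA alone also stood apart from the other 6 in GC content. The Spearman correlation across genes between a gene's GC content and its deviation from the mean of the 10 libraries was -0.57 to -0.47 in PA and LA and 0.34 to 0.57 in the others. Genes are listed only from an FPKM of 0.005 (shown as 0.01), so an unlisted gene can still have had a few reads. Of the 80 entries of the 8 genes, 15 were unlisted, which allowed at most 1.82 counts in any of them.

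The genes lie on 7 chromosomes (mm10, with positions from GENCODE M21), 4 on each strand, and Myh6 and Myh7 are neighbours. Cdnf spans chr2:3513030-3526376 on the plus strand with 4 exons, Lrrc17 chr5:21543559-21575904 on the plus strand with 4 exons, and Chrna10 chr7:102111266-102116828 on the minus strand with 5 exons. Myh6 spans chr14:54941921-54966927 with 39 exons and Myh7 chr14:54970684-54994626 with 41 exons, both on the minus strand. Cd8b1 spans chr6:71322788-71337494 on the plus strand with 6 exons, Tctex1d4 chr4:117126794-117128738 on the plus strand with 4 exons, and Apol11b chr15:77633946-77643286 on the minus strand with 4 exons.

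RefSeq's table for GRCm38.p6 held a promoter window of 300 bases around the start for 7 of the 8 genes, all but Cd8b1. RefSeq's starts can differ from the ends of the GENCODE spans given above, and the window of Myh6 lies within its span. Printed are 4, those of Cdnf and Tctex1d4, as the most highly expressed gene of the 5 that were higher and a GC-rich gene of the 3 that were lower, and those of the adjacent Myh6 and Myh7, whose levels were ordered differently in PA and LA. The windows are chr2:3512815-3513114 (plus strand), chr4:117126563-117126862 (plus strand), chr14:54966558-54966857 (minus strand) and chr14:54994577-54994876 (minus strand), each written 5′ to 3′ along its gene. Capitals mark matches, on either strand, to the motifs searched. These were the TATA box (TATAAA), the CCAAT box (CCAAT), the GC box (GGGCGG), the MCAT element of muscle genes (CATTCC), the cAMP response element (TGACGTCA), the PPAR direct repeat (AGGTCA repeated after 1 base) and the CArG box.
Cdnf: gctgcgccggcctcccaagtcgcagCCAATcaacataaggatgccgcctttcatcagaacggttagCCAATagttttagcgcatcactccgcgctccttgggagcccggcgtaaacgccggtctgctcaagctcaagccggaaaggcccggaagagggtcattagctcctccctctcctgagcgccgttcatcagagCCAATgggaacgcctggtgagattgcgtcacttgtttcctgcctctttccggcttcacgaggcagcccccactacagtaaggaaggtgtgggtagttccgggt
Tctex1d4: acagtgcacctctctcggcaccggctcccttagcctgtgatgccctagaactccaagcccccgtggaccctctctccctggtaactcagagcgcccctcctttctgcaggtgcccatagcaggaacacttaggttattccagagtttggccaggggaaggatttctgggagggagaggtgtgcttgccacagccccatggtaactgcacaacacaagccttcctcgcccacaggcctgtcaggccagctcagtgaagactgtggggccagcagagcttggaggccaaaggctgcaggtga
Myh6: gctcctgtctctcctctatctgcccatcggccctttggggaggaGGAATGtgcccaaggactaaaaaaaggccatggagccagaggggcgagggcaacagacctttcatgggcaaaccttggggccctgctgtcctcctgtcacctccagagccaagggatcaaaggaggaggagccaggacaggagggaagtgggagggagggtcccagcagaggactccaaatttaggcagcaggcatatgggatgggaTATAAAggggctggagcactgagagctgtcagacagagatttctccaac
Myh7: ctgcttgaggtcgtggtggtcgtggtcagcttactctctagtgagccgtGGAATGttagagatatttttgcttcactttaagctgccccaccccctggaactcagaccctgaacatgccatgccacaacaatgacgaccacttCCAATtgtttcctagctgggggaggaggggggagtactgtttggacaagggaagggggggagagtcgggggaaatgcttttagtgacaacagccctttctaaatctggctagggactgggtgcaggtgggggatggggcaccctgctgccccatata
Of the 32851 windows in the table, 13.6% held the TATA box, 37.4% the CCAAT box, 35.7% the GC box, 14.7% the MCAT element, 1.79% the cAMP response element, 0.0396% the PPAR direct repeat and 1.63% the CArG box. The Cdnf window held 3 CCAAT boxes and no other match. The Myh6 window held 1 TATA box and 1 MCAT element, and the Myh7 window 1 CCAAT box and 1 MCAT element. The Chrna10 window, which is not printed, also held 1 MCAT element, and the Lrrc17 window 1 TATA box and 1 CCAAT box. No motif was found in the windows of Tctex1d4 and Apol11b. The windows differed in base composition, with 21 CG dinucleotides for Cdnf and 0 to 6 for the other 6, beside a median of 7.0 over all windows. No motif was thus shared by the 5 genes that were higher.

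Cdnf was the most highly expressed of the 8 genes in PA and LA, and it was low rather than absent elsewhere. Its expected counts were 445 and 1429 in PA, 1201 and 985 in LA, 55.9 and 73.4 in Vehicle, 118 and 119.8 in PA+NTP, and 125 and 269.6 in LA+NTP. Scaled by transcript length and depth, its level was 11.6 ± 0.643 FPKM in PA and 13.0 ± 1.03 in LA (mean ± SD, n = 2 in each group) against 0.94 ± 0.0566 in Vehicle, 1.25 ± 0.0212 in PA+NTP and 1.31 ± 0.233 in LA+NTP. The lowest library of PA and LA, at 11.16 FPKM, thus stood above the highest of the other 6, at 1.48 FPKM. From the summed counts, scaled by depth, Cdnf was 10.1-fold higher in PA and LA than in the other 6 libraries (exact 95% interval 9.31 to 10.9). This interval, like those below, is taken on counts rounded to whole numbers and covers counting error only.

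Lrrc17 stood at 59.6 and 211 counts in PA and at 178 and 129.8 in LA. It stood at 3.15 in each Vehicle library, at 1.96 and 10.1 in PA+NTP and at 6.14 and 4.67 in LA+NTP. Its level was 2.25 ± 0.283 FPKM in PA and 2.49 ± 0.00707 in LA, beside 0.03 to 0.14 FPKM in the other 6 libraries. The summed counts, 578 against 29, gave a 37.6-fold higher level in PA and LA (exact 95% interval 25.9 to 56.7). PA and LA did not overlap with the rest, and within the rest the 6 libraries overlapped between groups.

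Chrna10 was unlisted in both Vehicle libraries and in PA+NTP 1, and stood at 1.51 counts in PA+NTP 2 and at 5.44 and 6.57 counts in LA+NTP. In PA it had 27.2 and 56.4 counts and in LA 91.6 and 70.9. Its level was 0.695 ± 0.177 FPKM in PA and 1.16 ± 0.0495 in LA, and at most 0.06 FPKM in any other library. Against a floor of 3 counts over the Vehicle group, it was at least 24.5-fold higher in PA and at least 44.1-fold higher in LA. LA was 23.1-fold above LA+NTP (exact 95% interval 12.9 to 45.7), and PA was 50.4-fold above the 2 rounded counts of PA+NTP (13.5 to 423). The few counts of Chrna10 outside PA and LA were thus mostly in LA+NTP.

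Myh6 was unlisted in Vehicle, in PA+NTP and in LA+NTP 2, and stood at 2 counts in LA+NTP 1. It had 57.8 and 211 counts in PA and 21.5 and 11.9 in LA, or 0.8 ± 0.113 and 0.095 ± 0.0212 FPKM. Every PA library was therefore above every LA library, and every LA library above the other 6. Against the floor of 3 counts, Myh6 was at least 78.5-fold higher in PA than in Vehicle and at least 108-fold higher in PA than in PA+NTP. The bound for LA against Vehicle was at least 8.97-fold, and LA stood 28.3-fold above LA+NTP (exact 95% interval 7.23 to 243).

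Myh7 had 2.19 and 21.9 counts in PA and 31.5 and 24.97 in LA, 1 count in PA+NTP 2, and was unlisted in the other 5 libraries. Its level was 0.165 ± 0.00707 FPKM in LA and 0.06 ± 0.0424 in PA, where PA 1 rests on about 2 reads. Against the floor of 3 counts it was at least 7.0-fold higher in PA and at least 15.2-fold higher in LA than in Vehicle, and at least 32.0-fold higher in LA than in LA+NTP. The order of PA and LA was thus the opposite of that of Myh6.

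**Figure D1:**
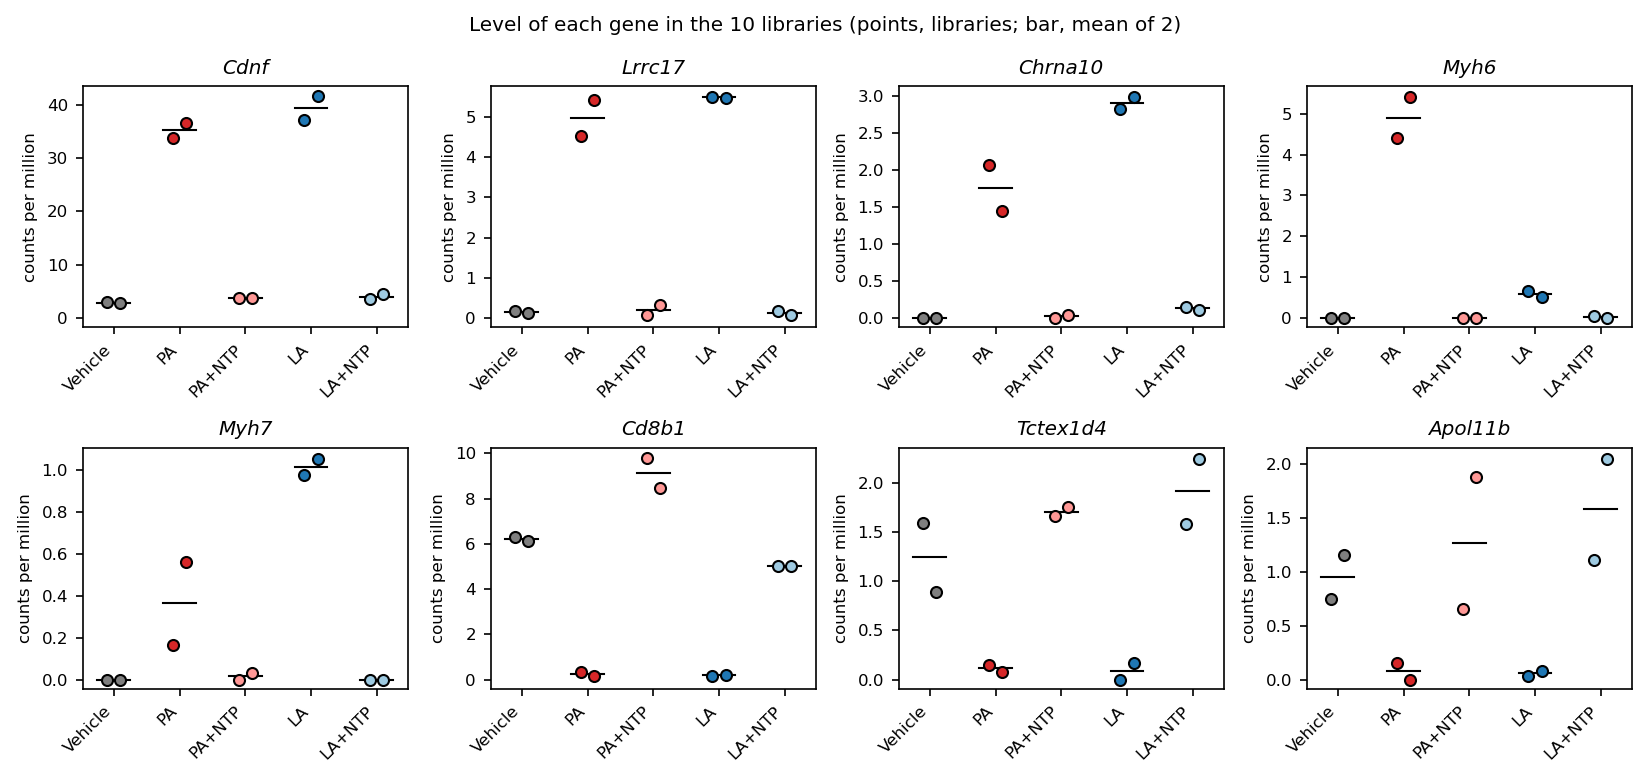
CPM of each gene (y axis, a linear scale of its own in each panel) in the 10 libraries by group (x axis), with points for libraries and bars for the mean of 2. Cdnf, Lrrc17, Chrna10, Myh6 and Myh7 are high in PA and LA and near 0 or low elsewhere, Cd8b1, Tctex1d4 and Apol11b the reverse, and Myh6 and Myh7 differ in the order of PA and LA.

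Cd8b1 was low in PA and LA. It had 118 and 164 counts in Vehicle, 301 and 270.0 in PA+NTP and 180.2 and 302 in LA+NTP, against 4.32 and 6.15 in PA and 4.51 and 5.27 in LA. Its level was 4.4 ± 0.0919 FPKM in Vehicle, 6.49 ± 0.665 in PA+NTP, 3.57 ± 0.0141 in LA+NTP, 0.17 ± 0.0849 in PA and 0.13 ± 0.0424 in LA. The groups were thus ordered PA+NTP, Vehicle, LA+NTP, then PA and LA, which overlapped. The summed counts, 20 against 1335, gave a 35.3-fold lower level in PA and LA (exact 95% interval 22.8 to 58.05).

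Tctex1d4 had 30 and 24 counts in Vehicle, 51 and 56 in PA+NTP and 57 and 135 in LA+NTP. In PA it had 2 and 3 counts, in LA 2 it had 4, and in LA 1 it was unlisted. Its level was 1.29 ± 0.516 FPKM in Vehicle, 1.77 ± 0.0707 in PA+NTP and 1.99 ± 0.481 in LA+NTP, and 0.12 ± 0.0566 in PA and 0.09 ± 0.127 in LA. The summed counts gave a 20.8-fold lower level in PA and LA (exact 95% interval 10.8 to 45.8). Of the 3 groups on the high side, PA+NTP lay within the range of LA+NTP and, in FPKM, just above both Vehicle libraries.

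Apol11b had 14.0 and 30.96 counts in Vehicle, 20.0 and 60.0 in PA+NTP and 39.9 and 123 in LA+NTP. In PA it had 2 counts in 1 library and was unlisted in the other, and in LA it had 1 and 1.96. Its level on the high side varied widely within a group, from 0.32 to 0.91 FPKM in PA+NTP and from 0.54 to 0.99 in LA+NTP, so that the 3 groups overlapped. The summed counts, 5 against 288, gave a 30.5-fold lower level in PA and LA (exact 95% interval 12.9 to 94.6).

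All 8 genes had no overlap in CPM between PA and LA and the other 6 libraries, as the rule implies, and the share of all 14097 tested genes without overlap was 38.9% (16.9% with PA and LA above and 22.0% with them below). The sides were also apart for all 8 in FPKM and after every library was thinned to the depth of PA 1. All 8 passed the filter on low counts. Only Cdnf passed it on both sides: Lrrc17, Chrna10, Myh6 and Myh7 passed through the libraries where they were high, PA and LA, and Cd8b1, Tctex1d4 and Apol11b through the other 6. In the edgeR fit over all genes the 8 were called in this contrast, in which 15.9% of tested genes were called (5.65% higher and 10.2% lower), and as the rule used this contrast nothing is read from it. A call here means an adjusted p under 0.05 with at least a 1.5-fold change.

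The fitted difference, the mean of PA and LA minus the mean of the other 3 groups on the log2 scale, was 7.88 for Myh6, 6.64 for Myh7, 6.43 for Chrna10, 5.21 for Lrrc17 and 3.45 for Cdnf, and -5.06 for Cd8b1, -4.60 for Apol11b and -4.14 for Tctex1d4. Without each library in turn it ranged from -6.38 to -3.68 for Apol11b and from -6.30 to -3.54 for Tctex1d4. For genes with libraries at 0 these fitted values depend on the prior count. The median over all tested genes was -0.01. An absence of overlap together with at least an 8-fold difference held for 28 genes (0.199% of those tested, 0.121% with PA and LA above and 0.078% with them below), of which 22 were protein-coding and 8 were the genes described here. The smallest difference among the 8 was that of Cdnf, and the next protein-coding genes in order were C5ar2 (-3.32) and Amd2 (3.25). Between Myh6 and Cdnf in that order stood 7 other genes that the annotation lists as protein-coding: Hamp2, Myl2, Gpr62, Rpl34-ps1, Ckm, Myl3 and Fsbp.

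The GC content of the transcripts was 45.3% for Cdnf, 46.3% for Apol11b, 49.6% for Lrrc17, 50.8% for Cd8b1, 55.1% for Chrna10, 56.2% for Myh7, 56.4% for Myh6 and 58.1% for Tctex1d4. The median of tested genes was 50.1%, that of genes called higher in PA and LA 42.1% and that of genes called lower 57.0%. With each library's trend on GC content removed, the log2 differences were 8.12 for Myh6, 6.85 for Myh7, 6.63 for Chrna10, 5.17 for Lrrc17, 3.22 for Cdnf, -5.04 for Cd8b1, -4.78 for Apol11b and -3.76 for Tctex1d4. The removal brought Cdnf and Tctex1d4, and by less Lrrc17 and Cd8b1, nearer to 0 and moved Chrna10, Myh6, Myh7 and Apol11b away from it.

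**Figure D2:**
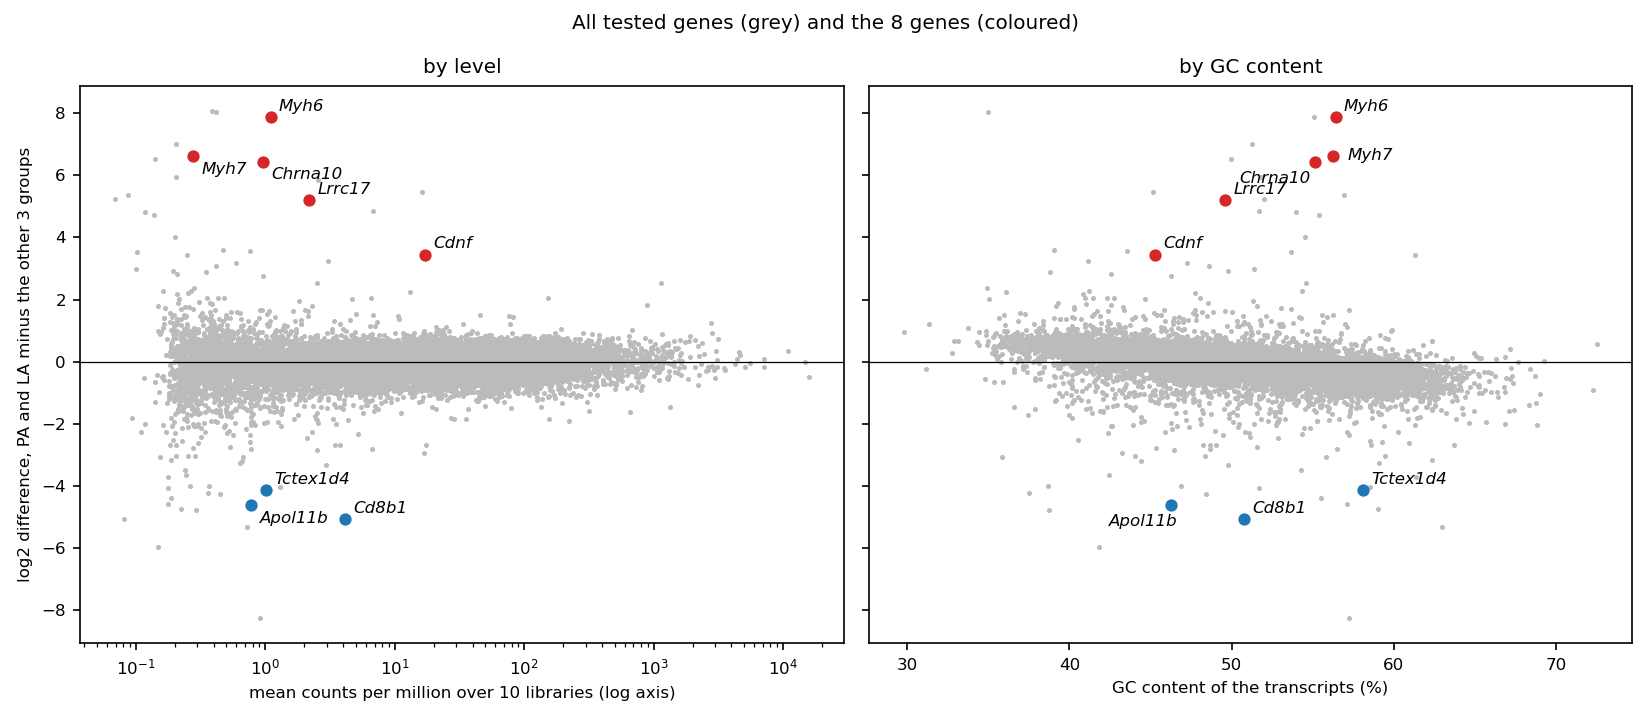
Log2 difference between PA and LA and the other 3 groups (y axis) for the 14097 tested genes (grey), against their mean CPM over 10 libraries (left, log axis) and, where known, the GC content of their transcripts (right, in percent). The 8 genes (red, higher; blue, lower) lie between -5.06 and 7.88, far outside the band of most genes, and the band slopes downward with GC content.

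Groups on the same side can be compared, since the rule did not contrast them, although it favoured genes with a small spread within a side. Between PA and LA, Myh6 was the only member of the 8 called. It was higher in PA by 3.06 on the log2 scale (SE 0.42, edgeR adjusted p = 7.33e-04), or 8.75-fold in summed counts (exact 95% interval 6.08 to 13.0), and both PA libraries were above both LA libraries. In that comparison 3.23% of tested genes were called. Without each library in turn the difference in Myh6 ranged from 2.90 to 3.26 and stayed past the threshold. Myh7, which was 2.17-fold higher in LA in summed counts (exact 95% interval 1.33 to 3.67), differed by -1.27 (SE 0.59, edgeR adjusted p = 0.210) and Chrna10 by -0.81 (SE 0.37, edgeR adjusted p = 0.202), and neither passed. For Cdnf (-0.17, SE 0.10), Lrrc17 (-0.14, SE 0.28), Cd8b1 (0.10, SE 0.53), Tctex1d4 (0.39, SE 1.14) and Apol11b (-0.42, SE 1.71) the difference between PA and LA did not pass either, and a missed threshold does not show that the FFAs acted alike.

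Between PA+NTP and LA+NTP, Cd8b1 was called and no other. It was higher in PA+NTP by 0.83 (SE 0.17, edgeR adjusted p = 0.00471), with both PA+NTP libraries above both LA+NTP libraries, in a comparison that called 3.82% of tested genes. Without each library in turn this difference ranged from 0.75 to 0.91 and kept its call. Vehicle lay between, with PA+NTP above it by 0.54 (SE 0.17, edgeR adjusted p = 0.0681) and LA+NTP below it (-0.30, SE 0.18, edgeR adjusted p = 0.494), and neither difference was called. Of the 8 genes, 0 were called by edgeR between PA+NTP and Vehicle, where 2.85% of tested genes were, and 0 between LA+NTP and Vehicle, where 0.0922% were. In each of these comparisons 2 of the 8 had an unadjusted p under 0.05, and DESeq2 called 0 with the same number. Cdnf was above Vehicle by 0.40 (SE 0.17, edgeR adjusted p = 0.153) in PA+NTP and by 0.52 (SE 0.16, edgeR adjusted p = 0.152) in LA+NTP.

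**Figure D3:**
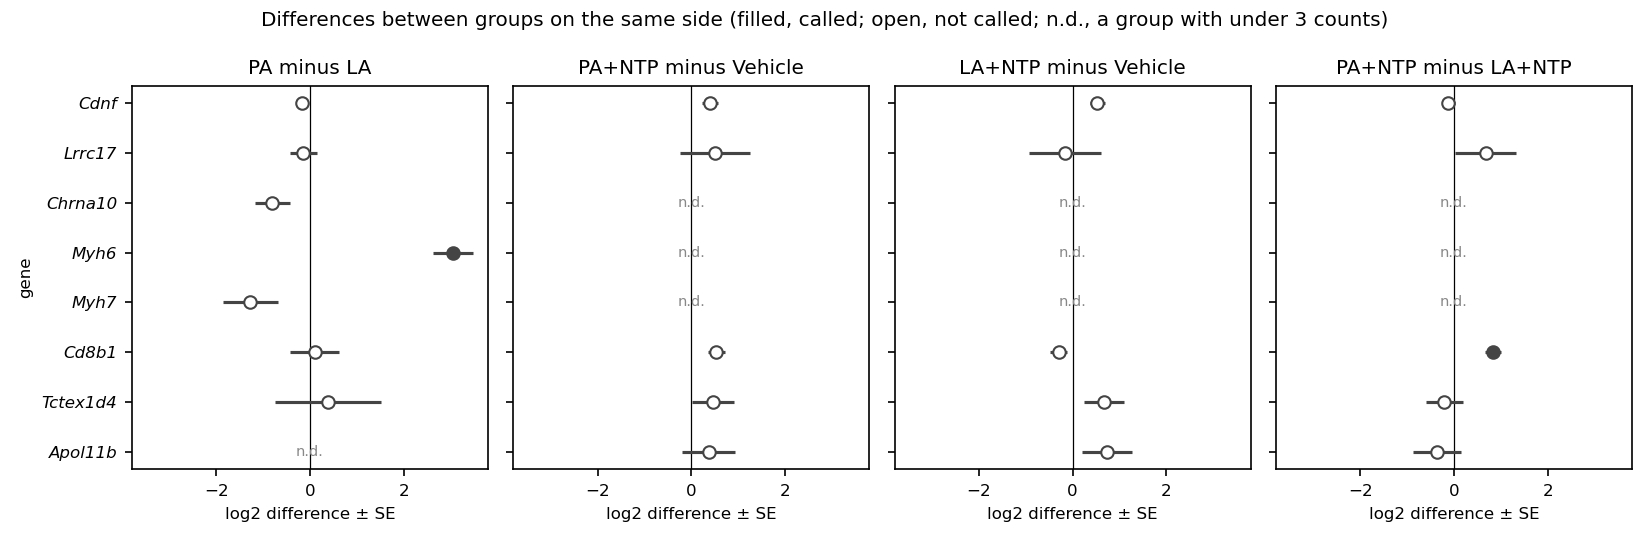
Fitted log2 differences with their SE (x axis) of the 8 genes (y axis) in the 4 comparisons between groups on the same side, drawn where both groups had at least 3 summed counts. The filled points are the called differences, Myh6 between PA and LA (3.06) and Cd8b1 between PA+NTP and LA+NTP (0.83).

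Other genes of striated muscle were looked at because Myh6 and Myh7 are sarcomere genes. Of 21 genes of the cardiac and striated muscle list, all were listed in some library, and without Myh6 and Myh7 14 were tested. In the contrast of PA and LA with the rest, where 15.9% of all tested genes were called, 6 of the 14 were called higher (Tnnt2, Myl2, Myl3, Ttn, Pln and Ckm) and 1 lower (Actc1, -0.62). This contrast averages PA and LA, and a gene called in it need not be higher in both. Tnnt2 stood at 2.51 and 1.87 CPM in PA, at 0.31 and 0.46 in LA and at 0.59 and 0.52 in Vehicle. Pln had 10 and 33 counts in PA, 6 in LA 1 and 0 in LA 2. Myl2, Myl3 and Pln passed the filter on low counts only through the PA libraries and Ckm only through the LA libraries, where they are high, so these 4 could enter the test only with a difference and nothing is read from the count. Myl2, the ventricular regulatory light chain, had 12 and 41 counts in PA, 1.91 and 1 in LA and none listed elsewhere. Myl3, a ventricular essential light chain, had 8 and 26 in PA, 1 in each LA library and in LA+NTP 1, and none listed elsewhere. Ckm, the muscle creatine kinase, had 13 and 12 in LA, 1 and 5 in PA and 2 in PA+NTP 2.

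Without each library in turn, the difference ranged from 5.78 to 6.08 for Myl2, from 4.26 to 5.33 for Myl3 and from 3.1 to 3.3 for Ttn. Myl2 and Myl3 entered these fits only through libraries where they are high, so no stability is read from their ranges. Tnnt2 (0.75, edgeR adjusted p = 0.0392) lost its call without any of 7 libraries (Vehicle 1, Vehicle 2, PA 1, PA+NTP 1, PA+NTP 2, LA 2 or LA+NTP 2), with an adjusted p of up to 0.164. Pln, which encodes the calcium pump regulator phospholamban, lost it without LA 1 (0.41, edgeR adjusted p = 0.85), Ckm without PA 2 (4.54, edgeR adjusted p = 0.0503), and Actc1 without Vehicle 2, PA 2 or PA+NTP 1. Ttn, which encodes titin, had 17.9 and 18 counts in LA, 15 and 54 in PA and 8 to 22 in Vehicle and PA+NTP, and was unlisted in LA+NTP. For a transcript of its length an unlisted entry allows up to 15.6 and 26.0 counts there, and on log2(FPKM + 0.1) its difference was 0.08 and was not called.

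Muscle genes also differed between PA and LA. Of the 14 tested, 5 were called higher in PA than in LA (Tnnt2, Myl2, Myl3, Mybpc3 and Pln) and 1 higher in LA (Acta1), in a comparison in which 1.18% and 2.04% of all tested genes were called higher in PA and in LA. Myl2, Myl3, Mybpc3 and Pln passed the filter only through the 2 PA libraries, where they are high, so their calls follow in part from the filter and the count is not read against these shares. Tnnt2, cardiac troponin T, had 33 and 73 counts in PA and 10 and 11 in LA, a difference of 2.47 (SE 0.43, edgeR adjusted p = 0.00238) that kept its call without each library in turn. In summed counts, scaled by depth, Myl2 was 19.0-fold (exact 95% interval 6.14 to 94.8), Myl3 18.2-fold (4.68 to 157) and Pln 7.69-fold (3.26 to 22.1) higher in PA. Mybpc3, cardiac myosin binding protein C, had 5 and 15 counts in PA and was unlisted in LA, at least 7.15-fold higher in PA. Acta1 went the other way (-0.79, SE 0.11, edgeR adjusted p = 5.61e-04), 1.75-fold higher in LA in summed counts (1.57 to 1.96). Without each library in turn the difference in Acta1 ranged from -0.89 to -0.65. Actc1 also lay toward LA (-0.58, edgeR adjusted p = 0.00939), just under the 1.5-fold threshold. The calls of Myl2, Myl3, Mybpc3 and Pln were each lost without at least 1 of the 4 PA and LA libraries, and that of Pln also without either Vehicle library. Tnni3, cardiac troponin I, was not tested, with 3 and 12 counts in PA, 5 in PA+NTP 1 and none listed elsewhere.

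Markers of liver cells differed in the same comparison, and their part in these results was not tested. Of all tested genes 1.18% were called higher in PA and 2.04% higher in LA. Of 12 hepatocyte genes 3 were called higher in LA (Apoa1, -1.44, Ttr, -1.04, and Serpina1a, -0.74), and of 9 stellate cell genes 2 (Lrat, -1.33, and Reln, -0.75). The stellate cell genes Ngfr (1.16) and Des (0.34) lay toward PA, the rest toward LA, and none of these was called. Of 6 Kupffer cell genes 2 were called higher in PA (Cd68, 0.78, and Marco, 2.34). Not called were Adgre1 (0.79) and Csf1r (0.27), toward PA, and Clec4f (-1.715) and C1qa (-1.13), toward LA. Of 7 endothelial and 4 cholangiocyte genes 0 were called by edgeR.

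The skeletal myosin heavy chains were listed mostly in LA. Of the 14 genes of the myosin heavy chain list, 12 were listed in some library, and without Myh6 and Myh7 5 were tested. Myh2, a fast skeletal chain, had 18.4 and 10.8 counts in LA and was unlisted in all other libraries, at least 9.01-fold higher in LA than in PA. It passed the filter only through these LA libraries, so no test is given for it. Myh1 had 8.35 and 7.1 counts in LA, Myh4 1.3 and 3.48 and Myh8 1.76 and 1.22, and all 3 were unlisted in the other 8 libraries and were not tested. Myh11, the smooth muscle chain, was called higher in LA than in PA (-1.10, SE 0.28, edgeR adjusted p = 0.0218, lost without PA 2 or LA 2). The nonmuscle chains Myh9 (-0.12) and Myh10 (-0.51), with at least 1927 counts in every library, were not called between PA and LA. Myh10 (SE 0.07, edgeR adjusted p = 2.98e-04) missed only the 1.5-fold threshold. Between PA and LA and the rest, where 15.9% of all tested genes were called, 1 of the 5 was called. It was Myh11, which was lower (-0.61, edgeR adjusted p = 0.00632, lost without Vehicle 2, PA 2, LA 1 or LA+NTP 1). RSEM divides reads between similar transcripts, and 32.2% of the 31-base sequences of Myh6 also occur in Myh7, so counts of single members of this family can include reads of another.

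**Figure D4:**
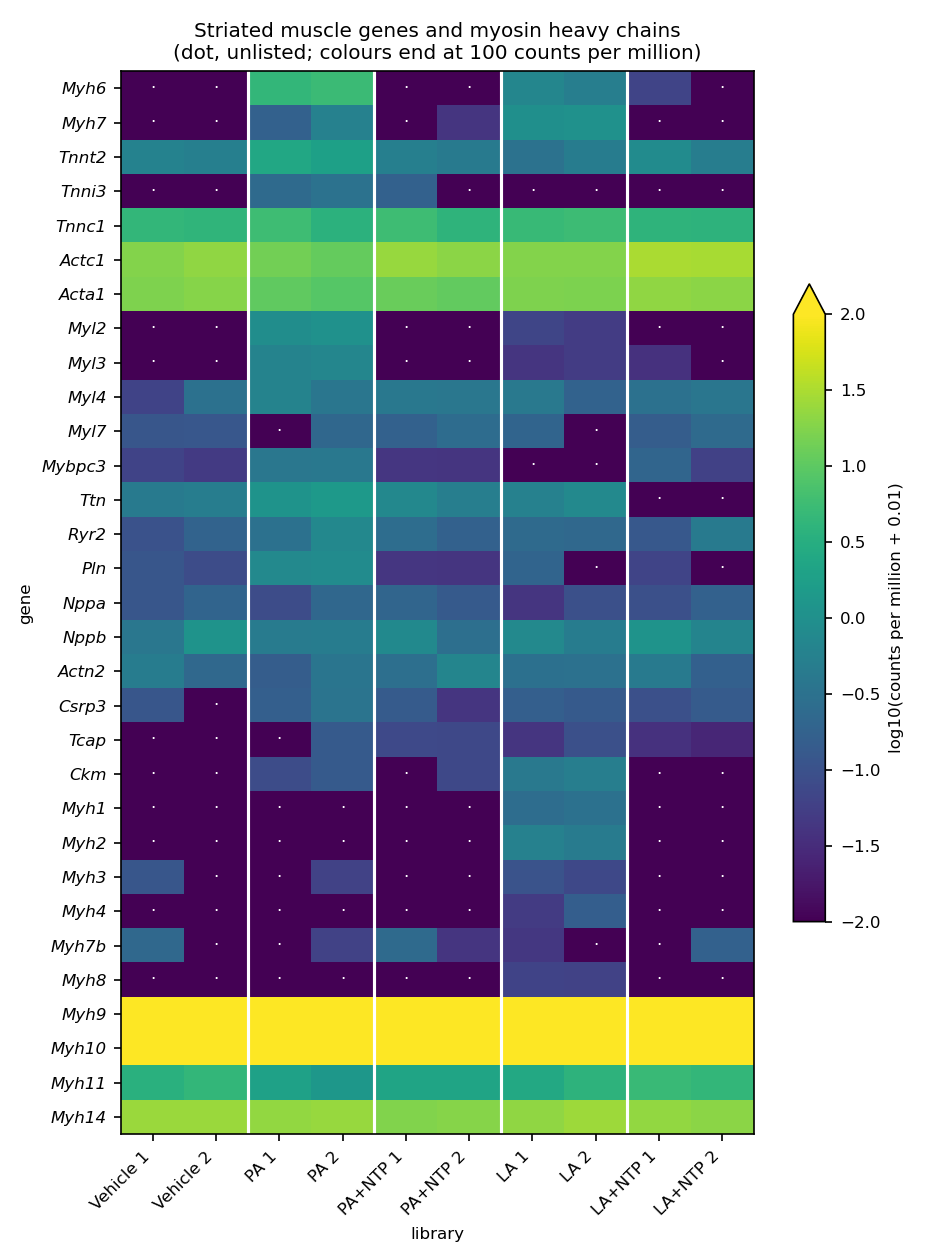
Level (colour, log10 of CPM plus 0.01) of the genes of the striated muscle and myosin heavy chain lists (rows) in the 10 libraries (columns), with a dot where a gene was unlisted. Myh6, Myl2, Myl3 and Pln are brightest in PA, Myh7, Ckm, Myh1 and Myh2 in LA, and Myh6, Myh7, Myl2, Myl3, Ckm, Myh1 and Myh2 are unlisted in Vehicle.

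For Cd8b1, the other T cell genes except Cd247 had at most 39.0 counts in any library. Of the 14 genes of the list, 13 were listed in some library, and Cd5 was unlisted in all. The defining genes Cd3e, Cd3g, Cd4 and Cd2 had at most 1, 2, 2 and 4 counts in any library. The summed level of the list without Cd8b1 was 11.3 to 11.6 CPM in Vehicle, 12.5 to 14.5 in PA, 11.2 to 11.9 in PA+NTP, 13.1 to 13.7 in LA and 10.2 to 11.3 in LA+NTP, most of it Cd247, which had 135 to 601 counts. Of 4 genes tested, 1 was called, Cd3d, beside 15.9% of all tested genes. Cd3d was higher in PA and LA by 1.59 (SE 0.42), the opposite direction to Cd8b1. It had 9.46 and 12.2 counts in PA, 27.8 and 14.8 in LA and 3.85 to 9.56 elsewhere. It passed the filter on low counts only through PA 1, LA 1 and LA 2, on the side where it is high, so nothing is read from its call. Cd8a, which encodes the partner chain of Cd8b1, had 8.98 to 39.0 counts per library and was not called (0.61, edgeR adjusted p = 0.103). In bulk libraries, fewer cells of a type and less RNA per cell cannot be told apart.

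The 2 nearest listed genes on each side of each of the 8 genes in RefSeq's gene table give 29 neighbours that are not themselves among the 8, of which 23 were tested. Of these, 2 were called between PA and LA and the rest, beside 15.9% of all tested genes. They were Btbd19 (-0.81, SE 0.11, edgeR adjusted p = 1.94e-05), next to Tctex1d4, and Trpc2 (-0.66, SE 0.15, edgeR adjusted p = 0.0016), near Chrna10. Trpc2 thus moved in the opposite direction to Chrna10, and its call was lost without PA+NTP 1 or LA 1. With the trend on GC content removed neither passed (-0.53 for Btbd19 and -0.37 for Trpc2). Plk3, on the other side of Tctex1d4, differed by -0.57 and stayed just under the 1.5-fold threshold.

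Around Cdnf, the nearest gene Hspa14 lies 251 bases away and differed by 0.24 (SE 0.06), against 3.45 for Cdnf. Around Lrrc17, Armc10 differed by 0.23 and Fam185a by 0.43. Around Chrna10, Nup98, 2429 bases away, differed by -0.04 (SE 0.05). Around Cd8b1, Krcc1 differed by 0.53 and Rmnd5a by 0.54, both in the direction opposite to Cd8b1 and under the fold threshold. Around Apol11b, Gm8221 differed by 1.00 (SE 0.55, edgeR adjusted p = 0.132) and Apol9b by 0.14 (SE 0.13).

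Around Myh6 and Myh7 the flanking gene Ngdn differed by 0.15 (SE 0.05), with 475 to 1888 counts per library. Mhrt, a noncoding gene that runs opposite to Myh7 between the pair, failed the filter, with 2 and 7.98 counts in PA, 1 and 3 in LA and none listed elsewhere. Slc22a17, the next gene but 1 beyond Myh6, failed it too, with 10 and 6 counts in Vehicle, 8 and 7 in PA+NTP, 8 in each LA+NTP library, 1 in each LA library and none listed in PA. With no filter both were called in that fit, Mhrt higher (4.95, edgeR adjusted p = 0.00674) and Slc22a17 lower (-4.29, edgeR adjusted p = 0.00112). Mhrt overlaps 463 exon bases of Myh7 on the opposite strand. Of the 31-base sequences of Myh7 5.86%, and of those of Myh6 4.44%, occur in Mhrt on the opposite strand. As the library strand is not given, the few counts of Mhrt can include reads of Myh6 or Myh7.

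**Figure D5:**
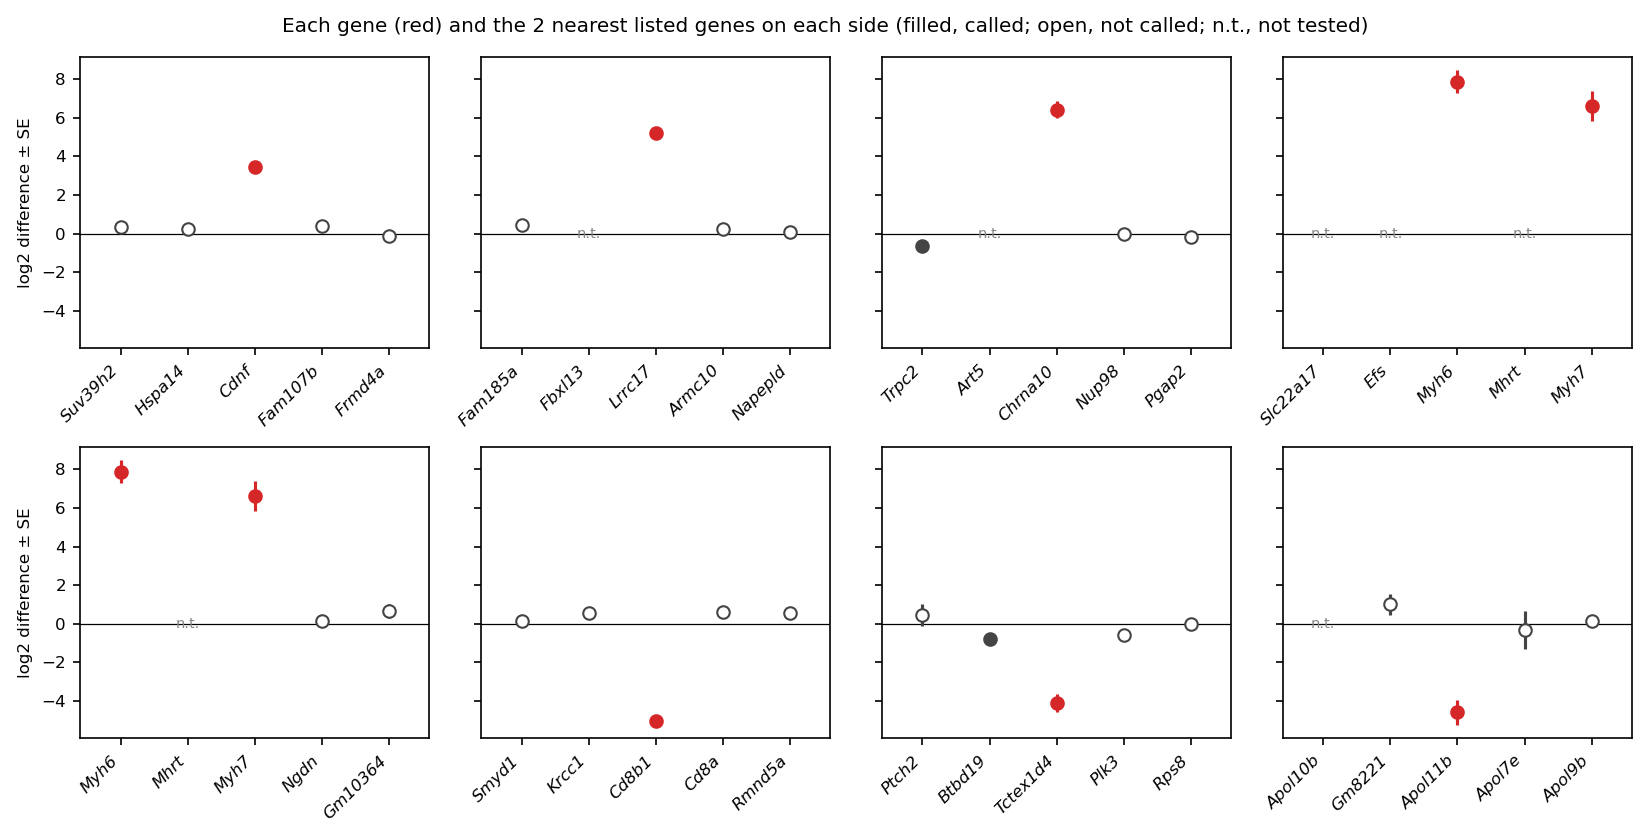
Fitted log2 difference with its SE (y axis) of each of the 8 genes (red) and of the 2 nearest listed genes on each side (x axis, in order of position), filled where called and open where not. Apart from Myh6 and Myh7, which flank each other, the tested neighbours lie between -0.81 and 1.00, while the 8 genes lie at or beyond 3.45 and -4.14.

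Because counts were estimated over annotated transcripts, the sequence that each gene shares with others was measured as the share of its 31-base sequences found in transcripts of another gene, on either strand. It was 38.9% for Chrna10, all of it on the opposite strand in Art1, which was unlisted in all libraries and overlaps 1025 bases of Chrna10's exons. It was 39.2% for Myh7, 33.8% for Apol11b, with Apol11a as the main partner and Apol11a unlisted in all libraries, and 32.3% for Myh6. Cd8b1 shared 8.4%, in sequences found across 1532 genes, and Cdnf 3.82%, across 1341 genes, all of it in the 3′ untranslated region in both. Lrrc17 shared 4.24% and Tctex1d4 5.62%, the latter on the opposite strand with Plk3 over 84 bases of exon. Where the library kept no strand, reads of such overlapping genes cannot be told apart, and the strand of these libraries is not given in the sources used here. The length implied by count, FPKM and depth differed between libraries by a factor of at most 1.007 for any of the 7 genes with an FPKM of 0.5 or more in at least 2 libraries.

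The paralogs and partners of the other genes were also examined. That they differed less than these genes themselves follows from the choice of the 8 genes, and nothing is read from it. In the list of Manf, Cdnf and endoplasmic reticulum chaperones, 4 of 9 tested genes were called higher in PA and LA and 0 lower, with a median of 0.54. Of all tested genes 5.65% were called higher and 10.2% lower. The genes of this list that were called are 4. They were Manf (0.73, SE 0.04), Hspa5 (0.82, SE 0.04), Hsp90b1 (0.90, SE 0.04) and Sdf2l1 (0.73, SE 0.08), the first a paralog of Cdnf and the next pair the main chaperones of the compartment, with edgeR adjusted p between 3.36e-10 and 1.91e-06. Their direction was that of Cdnf, at a smaller size. Between PA and LA, Sdf2l1 (0.74), Creld2 (0.80) and Pdia4 (0.79) of this list were called higher in PA, with edgeR adjusted p between 1.83e-06 and 0.00162, whereas Cdnf was not called. In that comparison 1.18% of all tested genes were called higher in PA. In the apolipoprotein L list 1 of 7 was called, Apol8, beside 15.9% of all tested genes. Apol8 was lower in PA and LA (-1.67, SE 0.43), and more so without PA 2 (-4.27). It had 0 and 8 counts in PA, 10 and 4 in LA and 15 to 40 elsewhere. It passed the filter on low counts only through the other 6 libraries, where it is high, so nothing is read from its call. Apol9a and Apol9b, the most abundant of the family, differed by 0.10 and 0.14 and were not called.

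Between PA and LA and the rest, 15.9% of all tested genes were called, the share beside which the counts of the next lists stand. Of the nicotinic receptor subunits, 1 of 6 tested was called, Chrna4, which was lower (-0.79, SE 0.26, edgeR adjusted p = 0.0164), the opposite direction to Chrna10, and which lost its call without PA 2 or PA+NTP 1. Chrna9, the usual partner of Chrna10, had at most 6 counts in any library and was not tested. Of the dynein light chains, 1 of 10 was called, Tctex1d2, which was higher (1.05, SE 0.12, edgeR adjusted p = 2.75e-06), the opposite direction to Tctex1d4. Of 4 tested genes of the RANKL axis beside Lrrc17, 0 were called by edgeR, with differences between -0.48 and 0.27, and Tnfsf11, which encodes RANKL, was unlisted in all libraries.

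Markers of other liver cells were measured beside these results, and their part in them was not tested. Of 6 tested Kupffer cell genes 1 was called (C1qa, -0.99), of 9 stellate cell genes 2 (Col1a1, -0.80, and Pdgfrb, -0.64), and of 7 endothelial, 4 cholangiocyte and 12 hepatocyte genes 0 by edgeR. These counts are between PA and LA and the rest, where 15.9% of all tested genes were called. The summed Kupffer cell level was 207 to 208 CPM in Vehicle, 207 to 240.1 in PA, 271 to 302 in PA+NTP, 126 to 130.3 in LA and 183 to 195 in LA+NTP. Most of this sum was Cd68, with 2540 to 11322 counts per library, so it mainly describes that gene. Clec4f had at most 25 counts in any library. The summed stellate cell level was 54.0 to 55.1 in PA, 65.2 to 67.4 in LA and 65.9 to 80.6 in the other 6 libraries. The call of C1qa was lost without PA 2, PA+NTP 1 or LA 1, and that of Pdgfrb without PA 1 or PA+NTP 2. The summed muscle level without Myh6 and Myh7 was 33.4 to 38.4 in PA, 43.2 to 43.4 in LA and 37.7 to 60.2 in the other 6, most of it Actc1 and Acta1.

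Across the 10 libraries, log2 CPM of the 8 genes correlated with each other in the direction that the choice of genes fixes, with the weakest value (r = 0.75) between Myh6 and Myh7. The tested genes whose pattern was most like each of them were Gm5177 and Mir1902 for Cdnf (r of 0.993 and 0.992), Dr1 and Ddx3x for Lrrc17 (0.994 and 0.993), Fam107b and Bbs5 for Chrna10 (0.979 in each) and Hnrnpa0 and Ormdl2 for Myh6 (0.974 and 0.973). They were Gm20745 and Skil for Myh7 (0.989 and 0.986), 4930539J05Rik and Wnt4 for Cd8b1 (0.992 and 0.990), Cnot3 and Cbx2 for Tctex1d4 (0.991 and 0.990), and Hsbp1 and Zfhx2os for Apol11b (0.988 and 0.982). Over 10 libraries on 2 sides such values mostly describe the difference between the sides. The size of that difference varied among the like genes, from 0.31 for Hnrnpa0 to 8.05 for Mir1902. Fam107b, most like Chrna10, is the neighbour of Cdnf and differed by 0.39 (SE 0.04).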

How the data were processed

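RNA of 10 libraries of mouse primary hepatocytes, 2 in each of 5 groups, had been sequenced, aligned with HISAT and Bowtie2 to mm10 and quantified with RSEM, per the study's methods and the submitters' processing notes (no versions and no library strand were found there). The authors deposited, for each library, RSEM's expected counts per gene, which are not normalized, and FPKM values, which the authors' pipeline scaled by transcript length and depth. A gene is listed in a library only at an FPKM of 0.005 or more, and an unlisted gene was entered as 0. Groups and replicate numbers came from the sample titles. In each group at least 1 deposited table carries another number in its name, and the libraries named here, and the replicate block, follow the titles.

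Expected counts were rounded to whole numbers and fitted with edgeR 4.0.16 (R 4.3.3; quasi-likelihood test, TMM, all libraries, 1 factor of 5 groups) after filterByExpr, which kept 14097 of 18055 genes (at least 2 libraries above 0.319 CPM, or 10 counts at the median depth). P-values were adjusted by Benjamini and Hochberg over all tested genes. Totals per library ran from 13142588 to 60046937 expected counts, so a single read weighs most in PA 1. Exact 95% intervals of count ratios are conditional binomial, and floors are 3 counts over a group. Both cover counting error only. No library repeated its replicate within sampling noise. Gene IDs were matched to RefSeq GRCm38.p6 by ID (17998) or accession (11), and 46 stayed unmatched. GC content came from GENCODE M21.

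The 8 genes and the related gene lists were chosen with earlier results of these data known. Named are the 8 genes, the 2 nearest listed genes on each side where called or where a locus is described, the called genes of the related lists and the paralogs, and for each gene the 2 tested genes of highest Pearson correlation over 10 libraries. Genes of these lists that are not called, and those ranked beside the 8 genes by size, were named after their values were seen. Alternatives were DESeq2 size factors, DESeq2 1.42.0, no filter, limma 3.58.1 on log2(FPKM + 1) and log2(FPKM + 0.1), a replicate block, a loess trend on GC content removed, and each library left out.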

Additional observations from a re-analysis of the deposited data

Results flagged for a closer look

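Of the 8 genes, 1 differed between PA and LA and 1 between PA+NTP and LA+NTP by a test of the difference itself, where 3.23% and 3.82% of all tested genes were called. Myh6 was higher in PA than in LA by 3.061 on the log2 scale (SE 0.42, edgeR adjusted p = 7.33e-04), in 2 of 2 PA libraries against both LA libraries, although it was above Vehicle in each. Cd8b1 was higher in PA+NTP than in LA+NTP by 0.832 (SE 0.17, edgeR adjusted p = 0.00471), again without overlap of the libraries, whereas between PA and LA it differed by 0.10 (SE 0.53) and was not called. The groups hold 2 libraries each, too few for a test of single outlying libraries.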

How the results depend on the processing

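Between PA and LA and the rest, 8 of the 8 genes were called under the alternatives that kept all libraries, or 6 on log2(FPKM + 1). The rule used this comparison, so that count follows from the choice of genes and no stability is read from it. In the other comparisons the counts of the 8 genes called were within 1.5 times those reported under these alternatives. They were 1 between PA and LA, 0 and 0 against Vehicle, and 1 between PA+NTP and LA+NTP. The number of neighbours called, 2, became 4 with no filter, 1 on log2(FPKM + 1), and 0 both with the GC trend removed and with the replicate block and the GC trend removed, and ranged from 2 to 4 without each library in turn. The number of related genes called, 19, became 7 on log2(FPKM + 1), which compresses low genes, and was 15 to 20 without each library. The number of muscle genes higher in PA than in LA, 5, became 3 on log2(FPKM + 1) and was 1 to 5 without each library, lowest without PA 2 or LA 2. The 19 related genes are among 130 listed, not all of them tested, in a contrast that called 15.9% of all tested genes. The causes of these changes in number were not tested. The alternatives for these muscle genes, and the block together with the GC trend, were chosen after seeing the data, and DESeq2 is not counted there because it gave an adjusted p for 1 of the 5.

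The replicate numbers do not pair the libraries (correlations of deviations between groups from -0.07 to 0.13). With the replicate block, 8, 1, 0, 0 and 1 of the 8 genes, 2 neighbours, 19 related genes and 5 muscle genes were called. Single libraries set the size for low genes between PA and LA and the rest: Tctex1d4 was at -6.30 without LA 2 and -3.54 without LA 1, Apol11b at -6.38 without PA 1 and -3.68 without PA 2, Chrna10 at 7.48 without PA+NTP 2, and Myh6 at 8.74 without LA+NTP 1. No difference changed its sign under the alternatives run. At 2 libraries a group, values of a few reads, such as those of Myh7 outside PA and LA, limit what can be compared.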
